A study of Arabidopsis thaliana with 7 samples.

Results

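Each CCA1 peak was assigned to the gene with the nearest promoter. The genes described here are those so assigned that have the word kinase in the authors' gene description. Hexokinases, dikinases, CBL-interacting kinases (CIPK), transporters and phototropins were left out by the same rule, which removed 9 genes. The rule found 66 genes among the 1760 genes nearest to a peak in either light regime, or 3.75%. They numbered 41 of 1306 genes in continuous light (LL) and 52 of 1455 genes in light-dark cycles (LD), and each had a single peak in each list that held it. By their descriptions 53 of the 66 encode protein kinases. The other 13 encode 7 kinases of small molecules or lipids, 3 inhibitors of cyclin-dependent kinases and 3 proteins that are substrates, subunits or associates of kinases, so the set is wider than protein kinases alone.

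CCA1, tagged with GFP and expressed under its own promoter in Arabidopsis thaliana of the WS-2 ecotype, was precipitated with anti-GFP from chromatin of whole seedlings aged 14 days, harvested at zeitgeber time (ZT) 2. All seedlings had been grown in 12 h light and 12 h dark. The LL seedlings (3 libraries) were then kept in constant light, and the LD seedlings (2 libraries) stayed in the cycles. The labels also name an LL library of ZT14 and a library of input DNA, which had no list of their own among those analysed here. The authors deposited 1 peak list for each regime, made from combined libraries, with 1433 LL peaks of 158 bp and 1607 LD peaks of 124 bp. Which libraries entered each list, and which served as control, is not given in the sources used. No value has a spread between replicates, so no difference between the regimes was tested. Because whole seedlings were used, strong binding in a few cells and weak binding in all cells cannot be told apart.

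The MYB-related factor CCA1 accumulates in the morning and mainly represses its targets, many of which are expressed later in the day. Protein kinases transfer phosphate from ATP to other proteins and so relay signals. In plants the largest group consists of receptor-like kinases, which sense peptides, hormones or microbial molecules at the cell surface. Cascades of mitogen-activated protein (MAP) kinases pass such signals on in 3 steps, and calcium-dependent kinases read changes in cell calcium directly.

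Of the 66 genes, 27 had a peak in both regimes, 14 in LL alone and 25 in LD alone. Over all 1760 genes the corresponding shares were 56.9%, 17.3% and 25.8%. Seen from each list, 27 of the 41 LL genes also had an LD peak, against 76.6% of all LL genes, and 27 of the 52 LD genes also had an LL peak, against 68.8% of all LD genes. By description and name, 19 genes were receptor-like kinases, 6 belonged to MAP kinase cascades, 3 were calcium-dependent kinases and 38 fell into a remaining class. Both regimes were represented in each class other than the calcium-dependent kinases, whose 3 peaks were all in LD.

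**Figure D1:**
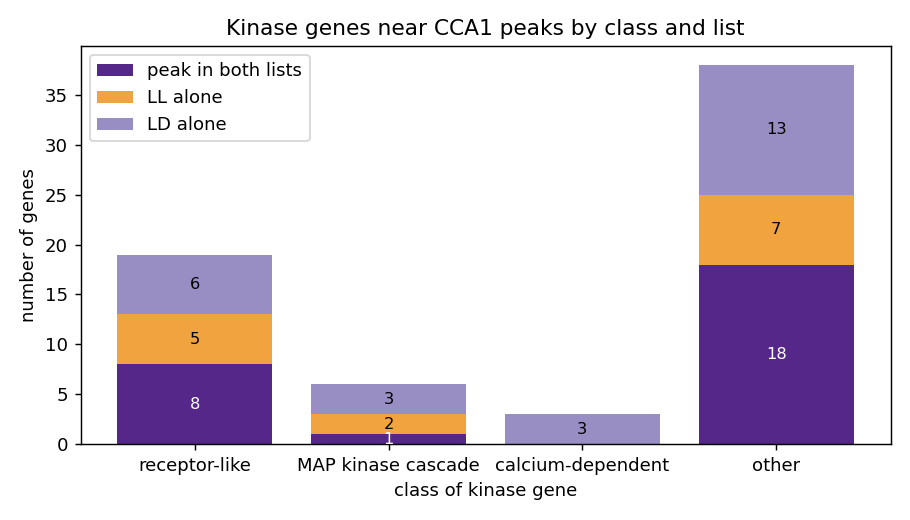
Number of genes (y axis) in each class of kinase gene (x axis), split into genes with a peak in both lists, in LL alone and in LD alone. The calcium-dependent class held 3 LD genes and no LL gene, and 18 of the 38 genes of the remaining class had a peak in both lists.

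By median strength, peaks at kinase genes lay near the middle of the LL list and below the middle of the LD list. HOMER, the authors' peak caller, gives each peak a score on a scale of its own list, so scores are compared here within a list. In LL the scores at kinase genes had a median of 25 and reached 59, against a median of 26 and a highest value of 181 over all LL peaks. In LD the median was 43 with a highest value of 95, against a median of 48 and a highest value of 238 over all LD peaks. The strongest kinase gene was outscored by 111 LL peaks and by 147 LD peaks. Tags per peak, the sequence reads counted there, ranged from 18 to 65 in LL (median 25) and from 32 to 94 in LD (median 42). They are raw counts, not scaled for library depth, so tags too are compared only within a list. The authors' normalised tags were 7.48 times the raw tags in LL and 3.44 times in LD. Among the upper 50% of each list by score, 19 genes of the set had a peak in LL and 23 in LD. The highest 10% of each list held 2 of the 41 LL peaks and 2 of the 52 LD peaks.

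**Figure D2:**
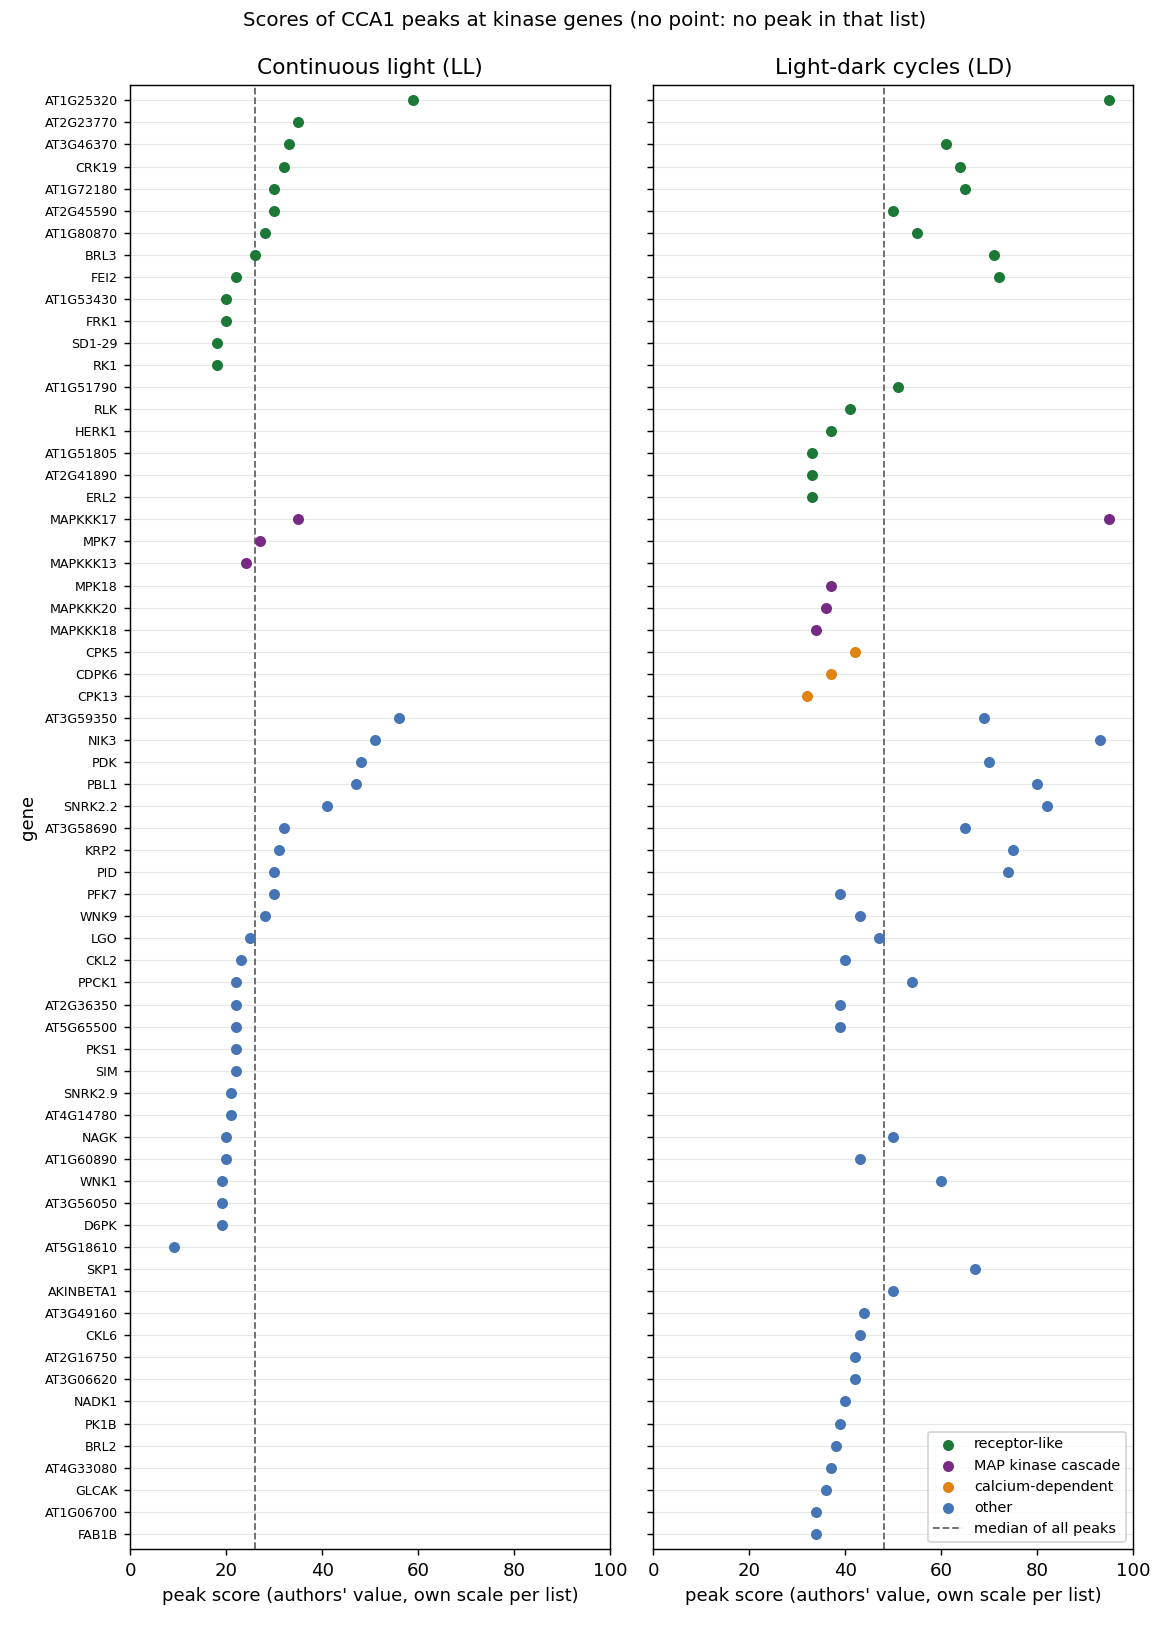
Peak score (x axis, the authors' value on a separate scale for each list) of the 66 genes (y axis), with LL on the left and LD on the right; a gene without a point had no peak in that list, and dashed lines mark the median of all peaks of the list (26 in LL and 48 in LD). AT1G25320 had the highest score of the set in LL (59) and shared the highest in LD (95) with MAPKKK17.

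Among receptor-like kinases, AT1G25320, described as a leucine-rich repeat protein kinase, had the highest score in both lists. It led the whole set in LL and tied with MAPKKK17 in LD. Its LL peak (chromosome 1, 8877704 to 8877862, TAIR10) had its centre 74 bp before the transcription start site (TSS) and held 65 tags (exact 95% Poisson interval 50.2 to 82.8) against 2.4 scaled control tags. The LD peak (8877736 to 8877860) lay 59 bp upstream and held 94 tags (76.0 to 115.0) against 2.6 control tags. Tags were 26.6 times the control in LL and 36.8 times in LD, and both these folds and the scores are the authors' own values. These intervals cover counting error only, since tags copied by PCR are not independent molecules. Nor do they allow for the library depth behind each list.

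Another 7 receptor-like genes had peaks in both lists. CRK19, a cysteine-rich receptor-like kinase, scored 32 in LL and 64 in LD. The authors' annotation placed both of its peaks in the promoter of the neighbouring CRK18, so the nearest-gene assignment is not unique there. BRL3 encodes a brassinosteroid receptor related to BRI1. Its peaks held 25 tags in LL (16.2 to 36.9) and 68 tags in LD (52.8 to 86.2), at 802 bp and 779 bp upstream. FEI2, a receptor-like kinase of cell wall synthesis in roots, scored 22 in LL and 72 in LD. Its peak centres were 1 bp apart, and were listed 69 bp upstream of transcript AT2G35620.1 in LL and 68 bp downstream of the start of AT2G35620.2 in LD. AT3G46370 scored 33 in LL and 61 in LD, and AT1G72180 30 and 65. AT1G80870 had 28 in LL and 55 in LD, and AT2G45590 30 and 50. All 8 genes scored at or above the LD median of 48, and 7 of them at or above the LL median of 26.

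Another 5 receptor-like kinases had a peak in LL alone. AT2G23770, named LYK4 in the reference gene table, is a lysin motif receptor-like kinase of chitin sensing. Its peak scored 35 and held 37 tags against 4.5 control tags, at the end of the gene, 2225 bp downstream of the TSS. FRK1, a widely used marker of the response to bacterial flagellin, scored 20 with 21 tags and 4.2 control tags. Its fold over control of 4.99 was the lowest of the set in LL. SD1-29, a lectin receptor kinase that senses bacterial fatty acid metabolites, and RK1, of the same lectin family, both scored 18. AT1G53430, a leucine-rich repeat kinase, scored 20 in intron 2 of 23. Apart from AT2G23770 these scores were below the LL median.

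In LD alone, AT1G51790 scored 51 and AT1G51805 scored 33. Both are leucine-rich repeat kinases on chromosome 1 with 1 protein-coding gene between them, and their peaks were separate, at 882 bp and 424 bp upstream of their own TSS. HERK1, a kinase of the CrRLK1L family with a part in cell elongation, scored 37 (607 bp upstream). ERL2, a relative of ERECTA that acts in stomatal patterning, scored 33 (1296 bp upstream). AT5G67280, listed as RLK, scored 41, and the lectin receptor kinase AT2G41890 scored 33 at the end of the gene. With the exception of AT1G51790, these LD scores lay below the list median. The remaining class, set by the wording of descriptions, can also hold receptor kinases. Examples are NIK3, a leucine-rich repeat kinase of a family that interacts with a viral nuclear shuttle protein, and BRL2, a further relative of BRI1.

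Among MAP kinase cascade genes, MAPKKK17 stood out in both regimes. It encodes a kinase at the top of a cascade of abscisic acid signalling. Its LL peak on chromosome 2 from 13800289 to 13800447 scored 35 and held 33 tags (22.7 to 46.3), 429 bp upstream of the TSS. The LD peak, from 13800294 to 13800418, scored 95 and held 94 tags (76.0 to 115.0), 417 bp upstream. Its tags were 16.1 times the control in LL and 29.5 times in LD.

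MAPKKK18, the closest relative of MAPKKK17 in that cascade, had a peak in LD alone, with a score of 34 and 33 tags (22.7 to 46.3) at 983 bp upstream. MPK7, a MAP kinase at the end of the same cascade, had a peak in LL alone, with a score of 27 and 27 tags (17.8 to 39.3) at 285 bp upstream. The nearest LD peak lay 13145 bp from it. MAPKKK13 had a peak in LL alone (score 24), which the annotation column placed at the end of the adjacent AT1G07160. MAPKKK20 (score 36, 2205 bp upstream) and MPK18, a MAP kinase linked to cortical microtubules (score 37, 893 bp upstream), had peaks in LD alone. The MAPKKK20 peak held 6.6 control tags and had the lowest fold over control of this class, 5.31. All 7 peaks of the class, with MAPKKK17 counted in both lists, were upstream of the TSS. Of all peaks, 71.8% in LL and 69.2% in LD were upstream.

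The calcium-dependent kinases with a peak were CPK5, CPK3 and CPK13. CPK5 and CPK3 (listed as CDPK6) are known in calcium signalling of immunity and stress. CPK5 scored 42 with 41 tags (29.4 to 55.6) at 513 bp upstream. An LL peak, assigned to the neighbouring monosaccharide transporter gene TMT2 with a score of 25, lay 963 bp away. CPK3 scored 37 with 36 tags (25.2 to 49.8), 4 bp downstream of the TSS. CPK13 scored 32 with 32 tags (21.9 to 45.2) at 1147 bp upstream. All 3 scores were below the LD median of 48.

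The remaining class held 38 genes, of which 25 encode protein kinases. AT3G59350, described as a PTI1-like tyrosine-protein kinase, had the highest LL score of the class (56) with 62 tags (47.5 to 79.5) at 104 bp upstream. Its 158.4-fold excess over control was the highest of the whole LL list and rested on 0.4 scaled control tags, the lowest value in that list, which 5 peaks had. In LD it scored 69, with 68 tags (52.8 to 86.2), 0.6 control tags and a 106.6-fold excess. NIK3 scored 51 in LL and 93 in LD, at 827 bp and 795 bp upstream. PBL1, a receptor-like cytoplasmic kinase of immune signalling, scored 47 in LL and 80 in LD with 56 tags (42.3 to 72.7) and 75 tags (59.0 to 94.0). AT3G58690 scored 32 in LL and 65 in LD. These genes had peaks in both lists and scores above both list medians.

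SNRK2.2 encodes a kinase of the core abscisic acid pathway. It scored 41 in LL with 42 tags (30.3 to 56.8) and 82 in LD with 82 tags (65.2 to 101.8), and both peaks lay just inside the transcribed region, 78 bp and 39 bp downstream of the TSS. SNRK2.9 of the same family scored 21 in LL, 14 bp downstream of its TSS, and was not in the LD list. Among the WNK kinases, WNK1, known to phosphorylate a pseudo-response regulator of the clock, scored 19 in LL and 60 in LD. These peaks held 19 tags (11.4 to 29.7) and 57 tags (43.2 to 73.9), 22 bp and 8 bp downstream of the TSS. WNK9 scored 28 in LL and 43 in LD. The casein kinase 1-like gene CKL2 scored 23 in LL and 40 in LD, and CKL6 scored 43 in LD alone.

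PINOID (PID), an AGC kinase that phosphorylates auxin efflux carriers, had its peaks inside the gene. Its peaks lay in exon 2 of 2, 1150 bp downstream of the TSS in LL (score 30, 31 tags) and 1128 bp in LD (score 74, 74 tags). D6PK, another AGC kinase of auxin transport, had a weak LL peak (score 19) 2521 bp upstream, which the annotation column placed at the end of OLI2. Regulators of primary metabolism also had peaks in both lists. PDK, which inactivates mitochondrial pyruvate dehydrogenase, scored 48 in LL with 52 tags (38.8 to 68.2) and 70 in LD with 69 tags (53.7 to 87.3), at 292 bp and 294 bp upstream. PPCK1, which phosphorylates phosphoenolpyruvate carboxylase, scored 22 in LL and 54 in LD, in intergenic sequence 3010 bp and 3019 bp downstream of its TSS.

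Other protein kinases of the class were listed by locus in the authors' gene names, apart from PK1B and BRL2. AT2G36350 scored 22 in LL and 39 in LD, and AT5G65500, a kinase with a U-box domain, likewise scored 22 and 39. AT4G14780 (score 21), AT3G56050 (19) and AT5G18610 (9) had peaks in LL alone. The AT5G18610 peak had the lowest score of the LL list and a clonal fold of 1.9, the highest of that list; the clonal fold measures how far tags pile up at the same positions. In LD alone were AT2G16750 (score 42, in the 5' UTR) and AT3G06620 (42), and also PK1B (39), BRL2 (38), AT4G33080 (37) and AT1G06700 (34). BRL2 lay farthest from its peak of all genes in the set, with the peak centre 4928 bp downstream of the TSS.

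The 13 genes that encode no protein kinase included inhibitors of cyclin-dependent kinases, which restrain cell division. KRP2 scored 31 in LL with 32 tags (21.9 to 45.2) and 75 in LD with 73 tags (57.2 to 91.8), 1874 bp and 1958 bp upstream of the TSS. LGO, which favours endoreduplication, scored 25 in LL and 47 in LD near the end of the gene. SIM, its relative in trichomes, had a peak in LL alone (score 22). All 7 kinases of small molecules or lipids had an LD peak and 3 of them an LL peak. Of the 1760 genes nearest to a peak in either list, 1455 had an LD peak and 1306 an LL peak. The glycolytic gene PFK7 scored 30 in LL and 39 in LD. The arginine synthesis gene NAGK scored 20 in LL and 50 in LD, and the phosphoinositide kinase gene AT1G60890 scored 20 and 43. The NAGK peaks were annotated to the end of the neighbouring AGK2. AT3G49160 (score 44), NADK1 (40), GLCAK (36) and FAB1B (34) were in LD alone, and at NADK1, which makes NADP, the peak held 7.9 control tags, which left a fold over control of 4.7.

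Proteins associated with kinases were SKP1, AKINBETA1 and PKS1. SKP1, a subunit of SCF ubiquitin ligases, had the highest score of the set among LD peaks without an LL counterpart, 67, with 63 tags (48.4 to 80.6). This peak lay 1973 bp upstream of SKP1, at the end of the adjacent gene ATA27, and 54465 bp from the nearest LL peak. AKINBETA1, a regulatory subunit of SnRK1, scored 50 in LD, 34 bp upstream. PKS1, a substrate of phytochrome, scored 22 in LL at the end of the gene.

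Positions of the whole set were near those of all peaks in most categories, with larger gaps in LD for intergenic peaks and gene ends. In the promoter-TSS category were 26 of 41 LL peaks (63.4%, 95% Wilson interval 48.1 to 76.4) and 32 of 52 LD peaks (61.5%, 48.0 to 73.5), against 59.4% and 59.0% of all peaks of the lists. Upstream centres were found for 28 of 41 LL peaks (68.3%) and 39 of 52 LD peaks, against 71.8% and 69.2% of all peaks. Centres at most 1000 bp from the TSS were found for 28 LL peaks (68.3%) and 34 LD peaks (65.4%), against 64.1% and 64.0%. Intergenic peaks numbered 6 in LL (14.6%, 6.88 to 28.4) and 14 in LD (26.9%, 16.8 to 40.3), against 18.9% and 19.4% of all peaks. Peaks at gene ends numbered 7 in LL (17.1%, 8.53 to 31.3) and 4 in LD (7.69%, 3.03 to 18.2), against 14.9% and 14.0%. Each interval for the kinase genes in these categories contains the value of the whole list. For the protein kinases alone, 4 of 34 LL peaks (11.8%, 4.67 to 26.6) and 1 of 41 LD peaks (2.44%, 0.432 to 12.6) were at gene ends. Of the whole-list values, 14.0% in LD lies above the upper bound for the protein kinases. A window reaching 1000 bp before and 500 bp past the TSS held the peaks of 26 of the 41 genes in LL and 33 of the 52 in LD. The share of all peaks in that window is not given here, so these counts have no whole-list value beside them. The median GC content of the 500 bp window around a peak was 31.9% in LL and 31.6% in LD at kinase genes, against 32.7% and 33.3% over all peaks.

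**Figure D3:**
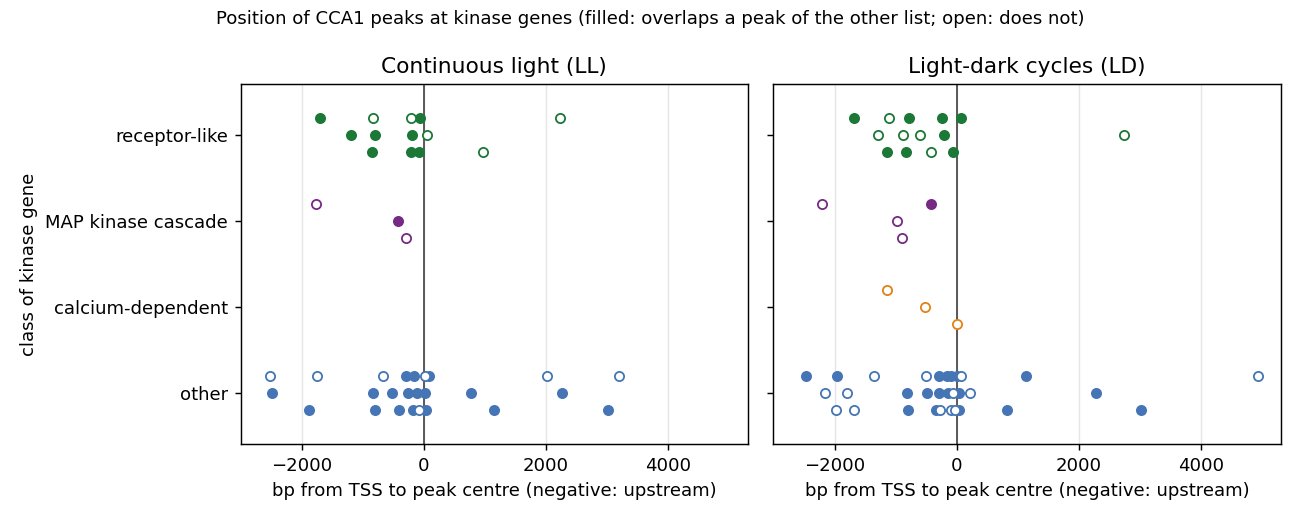
Distance in bp from the TSS to the peak centre (x axis, negative upstream) for the kinase genes by class (y axis; points are spread vertically within a class for legibility), with LL on the left and LD on the right. Filled points overlap a peak of the other list and open points do not. All 7 points of the MAP kinase cascade class lie upstream, against 71.8% of all LL peaks and 69.2% of all LD peaks. The point farthest downstream is BRL2 at 4928 bp in LD.

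Sites at kinase genes were compared between the regimes by overlap of at least 1 bp. At all 27 genes with a peak in both lists the peaks overlapped, with centres 1 to 84 bp apart (median 18 bp). These were 27 of 41 LL peaks (65.9%, 95% Wilson interval 50.5 to 78.4), against 74.6% of all LL peaks. They were 27 of 52 LD peaks (51.9%, 38.7 to 64.9), against 66.5% of all LD peaks, a value above the upper bound for the kinase genes. For the protein kinases alone it was 22 of 41 LD peaks (53.7%, 38.7 to 67.9), an interval that contains 66.5%. Among peaks with a score at or above the list median, 18 of 20 LL peaks (90.0%, 69.9 to 97.2) and 20 of 23 LD peaks (87.0%, 67.9 to 95.5) overlapped, against 91.7% and 87.7% of all such peaks. Below the median it was 9 of 21 LL peaks (42.9%, 24.5 to 63.5) and 7 of 29 LD peaks (24.1%, 12.2 to 42.1), against 55.8% and 45.3%, of which the LD value lies above the upper bound for the kinase genes. For the protein kinases alone, 4 of 22 LD peaks below the median overlapped (18.2%, 7.31 to 38.5), and 45.3% again lies above the bound. A peak that misses the calling threshold in 1 regime counts as not overlapping, and kinase genes and all peaks were not tested against each other.

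**Figure D4:**
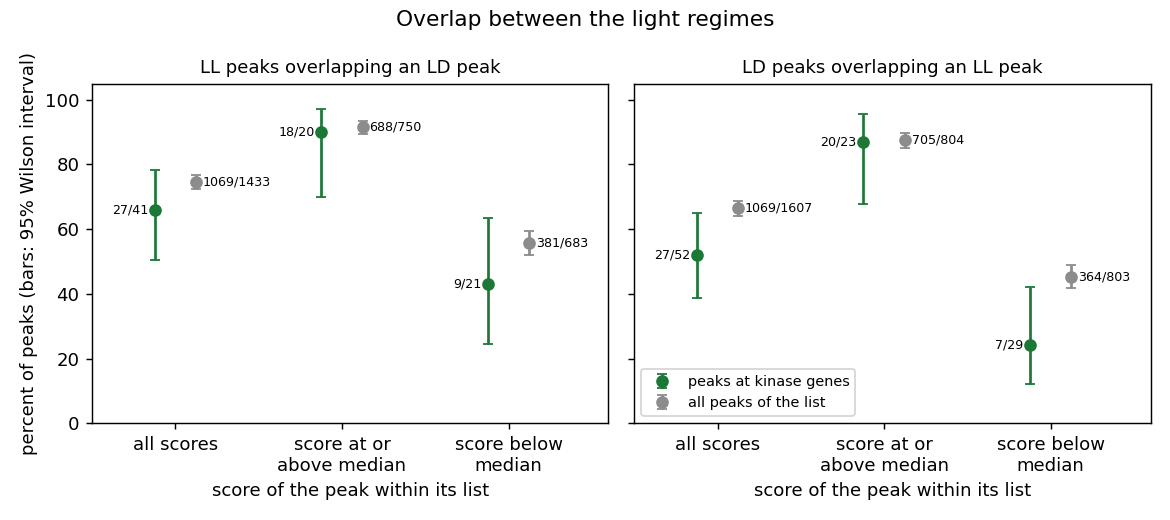
Percent of peaks (y axis) that overlap a peak of the other list, for LL peaks on the left and LD peaks on the right, over all scores and for scores at or above and below the list median (x axis). Green points are peaks at kinase genes and grey points all peaks of the list, bars are 95% Wilson intervals and labels give the counts; above the median the points lie close together (90.0% and 91.7% in LL, 87.0% and 87.7% in LD), and below it the kinase genes lie at 42.9% and 24.1%, against 55.8% and 45.3%.

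Peaks without overlap were also set against the nearest peak of the other list. The 14 LL peaks without overlap at kinase genes lay at least 6402 bp from the nearest LD peak, so 0 of 14 (95% Wilson interval 0 to 21.5%) had one within 2000 bp, against 69 of all 364 such LL peaks (19.0%). Of the 25 LD peaks without overlap, 4 had an LL peak within 2000 bp (16.0%, 6.40 to 34.7), each assigned to a neighbouring gene, against 89 of all 538 such LD peaks (16.5%). Both intervals contain the value of the whole list. Besides CPK5, these were FAB1B (767 bp), AT5G67280 (1640 bp) and PK1B (1784 bp). The median score without overlap was 20.5 in LL and 37 in LD, against 30 and 64 at kinase genes with overlap. The same split was seen over all peaks, with medians of 20 in LL and 39 in LD without overlap, against 30 and 56 with overlap.

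Kinase pathways were also counted gene by gene from 9 lists of symbols, all of them protein-coding. The lists were chosen with earlier results of these data known and need not hold every gene of a family. Of the 27444 protein-coding nuclear genes, 4.37% had an LL peak and 4.90% an LD peak; over all 37899 nuclear genes, noncoding ones included, it was 3.38% and 3.77%. Of 46 listed MAP kinase cascade genes, 3 had an LL peak (6.52%) and 4 an LD peak (8.70%), with no MAP kinase kinase among them. Of the 34 calcium-dependent kinases CPK1 to CPK34, 0 had an LL peak and 3 an LD peak (8.82%). Of 10 WNK genes, the same pair, WNK1 and WNK9, had a peak in each regime (20.0%). Of 12 SnRK1 and SnRK2 kinases, 2 had an LL peak and 1 an LD peak, and KIN10 and KIN11, the catalytic subunits of SnRK1, had neither. Of 8 listed genes of brassinosteroid signalling and BRI1 relatives, BRL3 had peaks in both lists and BRL2 in LD. The main receptor gene BRI1 and its partner BAK1 had none. Of 8 SERK and ERECTA genes and of 6 CrRLK1L genes, 1 each had an LD peak. The 7 listed genes of casein kinase 2, which phosphorylates CCA1, had no peak in either list. Nor did the 7 listed immune receptor and receptor-partner genes, among them FLS2, EFR and CERK1. A gene without a peak in these lists may still be bound below the calling threshold.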

How the data were processed

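ChIP-seq peaks of CCA1-GFP were analysed for LL and LD seedlings at ZT2. The tools named are HOMER 4.7, Bowtie2 2.2.1, Trimmomatic 0.33 and CASAVA 1.8, with the TAIR10 build, per the submitters' processing notes. Per the file headers, peaks came from HOMER on combined libraries of a regime, kept as the best-ranked set after an irreproducible discovery rate analysis, annotated with annotatePeaks.pl in a 500 bp window. Not given in the sources used here: duplicate removal, rate threshold, which libraries were combined, which served as control, and library totals. The authors deposited for every peak the total tags (a count), the normalised tags and scaled control tags (both signals), the score, fold ratios, p-values and the GC fraction; p-values were not used. Normalised tags were 7.48 times the total tags in LL and 3.44 times in LD, so equal tag counts in both lists do not stand for equal normalised signals. The files held 0 unused columns of per-sample values.

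Overlaps, counts, Wilson and Poisson intervals were computed with Python 3.11.15, pandas 2.3.3 and SciPy 1.17.1, after a check of the overlap and class rules on simulated peaks. The genes were the nearest-promoter genes whose description holds kinase, less the exclusions given. Classes came from words in description and name, and the 13 genes without protein kinase activity were marked by hand. Pathway symbols were matched to a RefSeq gene table (assembly TAIR10.1), in which all 66 genes were found; MPK13 and WNK11 were not matched, and ER and FLS2, each borne by more than 1 locus, were settled by hand. No coordinates of that table are printed; it also gave the order of neighbouring genes. Fixed for naming were the 10 highest scores per list, the 6 highest per class, the 5 highest unshared genes per list, all MAP kinase cascade and calcium-dependent genes, and pathway members with a peak; the others are named to account for every gene. Genes and lists were chosen with earlier results of these data known. No statistical test was run, and motif searches were not run here.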

Additional observations from a re-analysis of the deposited data

How the results depend on the processing

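Of 39 recomputed counts and shares, 28 stayed within 1.5 times the count or within the interval of the share. Among the upper 50% of each list, 19 genes had an LL peak, 23 an LD peak and 15 both. Of their peaks, 78.9% in LL and 65.2% in LD overlapped. Fewer peaks enter by construction, and the overlap of all peaks under that setting is not given here. In a window reaching 1000 bp before and 500 bp past the TSS, 26 genes had an LL peak and 33 an LD peak. Of these peaks, 100% and 97.0% were promoter-TSS, as the window favours that category. Shares of all peaks in the window are not given here. With the gene of the annotation column, which drops intergenic peaks, 30 genes had an LL peak, 35 an LD peak and 20 both. Promoter-TSS shares were then 83.3% in LL (95% Wilson interval 66.4 to 92.7) and 88.6% in LD (74.0 to 95.5). Of all peaks with a named gene, 851 of 1162 in LL and 948 of 1296 in LD were promoter-TSS. The LD share of all such peaks lies below the lower bound for the kinase genes. This setting only removed kinase genes, also where the column named another gene, whereas all peaks with a named gene were counted for the whole lists. Without the 13 genes that encode no protein kinase, 53.7% of LD peaks overlapped, and the interval then contained the share of all LD peaks. No replicate could be left out, since the lists pool libraries. No paired analysis was possible because each regime has a single list of pooled libraries. Tags limit the weaker genes: the lowest LL peak of the set held 18 tags (10.7 to 28.4) and the lowest LD peak 32 (21.9 to 45.2).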

Other observations

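The 66 genes were spread over the 5 nuclear chromosomes, with 17 on chromosome 1, 14 on 2, 20 on 3, 6 on 4 and 9 on 5. The genes nearest to a peak in either list numbered 439, 304, 332, 250 and 434 on the same chromosomes. In 4 pairs, neighbouring genes of the set had 1 to 8 protein-coding genes between them: AT1G51790 and AT1G51805, AT1G53430 and MPK18, NIK3 and AT1G60890, and HERK1 and AT3G46370. The NIK3 and AT1G60890 peaks were in both lists, whereas AT1G53430 had its peak in LL and MPK18 in LD.

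The annotation column named a gene other than the nearest one for 5 of 35 LL peaks at kinase genes (14.3%, 95% Wilson interval 6.26 to 29.4) and for 3 of 38 LD peaks (7.89%, 2.72 to 20.8). Over all peaks with a named gene the shares were 17.0% in LL and 16.2% in LD. Besides those already given, the LL peak of AT5G18610 was annotated to the end of CHR17.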
